A study of Mus musculus with 2 samples.

Results

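Contactins and contactin-associated proteins are neuronal adhesion molecules, and 9 of their genes, Cntnap2, Cntnap4, Cntnap5a, Cntnap5b, Cntnap5c, Cntn3, Cntn4, Cntn5 and Cntn6, were followed here among the 55450 gene rows of single-nucleus RNA sequencing from the mouse ventrolateral periaqueductal gray (vlPAG), a midbrain region. The set was chosen from measured values: Cntnap5c and Cntnap5b had been listed as differing with diet in subgroups of the GABAergic nuclei of these same libraries. The diet ratios of both genes in GABAergic nuclei are therefore a description and support nothing. All mice were WT C57/BL6J animals, 8 weeks old at the start, given a normal food diet (NFD) or a high-fat diet (HFD) for 7 weeks, and the tissue of 18 mice of each diet went into 1 pooled library. With 1 library per diet no test of diet was possible, so every interval given is a 95% interval for counting error only, and diet, dissection and library cannot be told apart.

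The NFD library held 41180006 unique molecular identifiers (UMIs, each a counted RNA molecule) in 7625 barcodes and the HFD library 55133689 in 6813. A nucleus was kept when it had over 500 UMIs, of which mitochondrial genes took less than 20%. This left 7500 and 6322 nuclei at medians of 4504.5 and 7347.5 UMIs, and 13 of the deposited barcodes, 12 of them among kept nuclei, occurred in both libraries. Clustering of both libraries together gave 23 clusters. They were named from marker genes, and each name stands for nuclei with that marker profile: 3038 NFD and 2292 HFD GABAergic, 1724 and 1482 glutamatergic, 255 and 169 serotonergic, and smaller groups of glia and vascular cells, while 1530 and 966 nuclei stayed unnamed. GABAergic markers (Slc32a1, Gad1, Gad2) summed to 408 and 421 UMIs per 1000000 UMIs of the group (CPM) in GABAergic nuclei against 34.4 and 30.3 CPM in glutamatergic nuclei. Glutamatergic markers (Slc17a6, Slc17a7, Slc17a8) summed to 50.8 and 45.8 CPM in GABAergic nuclei against 155 and 157 CPM in glutamatergic nuclei. A GABAergic marker UMI was found in 2206 of the NFD and 1923 of the HFD GABAergic nuclei. Nuclei with markers of cerebellar granule neurons numbered 10 in NFD and 767 in HFD, and the 5 granule markers summed to 3.14 and 8.03 CPM inside the GABAergic nuclei; the part of this in the results was not tested.

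Contactin-associated proteins are single-pass membrane proteins related to neurexins, and contactins are immunoglobulin-family proteins held on the cell surface by a lipid anchor. Cntnap2 protein helps to gather potassium channels beside the nodes of myelinated axons, and Cntnap4 has been linked to transmitter release from interneurons. Cntn3, Cntn4, Cntn5 and Cntn6 bind the receptor phosphatase Ptprg and take part in the wiring of sensory and motor circuits, whereas less is known of the Cntnap5 proteins, which the mouse encodes in several paralogues.

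Because the results turn on Cntnap5c and its paralogues, the 3 coding sequences were set side by side. Cntnap5c lies at chr17:57769570-58410355, Cntnap5a at chr1:115684756-116587323 and Cntnap5b at chr1:99772765-100485942, all on the plus strand (GRCm38, GENCODE vM21). Their coding sequences were 89.8% identical between Cntnap5a and Cntnap5b, 90.3% between Cntnap5a and Cntnap5c and 90.04% between Cntnap5b and Cntnap5c. The 90 aligned coding bases that were most alike in all 3 run from base 1462 to base 1551 of each coding sequence and are shown 5′ to 3′, with the 3 positions that differ in capitals.
Cntnap5a: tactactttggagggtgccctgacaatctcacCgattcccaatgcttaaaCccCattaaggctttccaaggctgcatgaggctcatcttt
Cntnap5b: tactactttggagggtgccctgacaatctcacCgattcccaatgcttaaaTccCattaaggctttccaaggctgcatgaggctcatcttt
Cntnap5c: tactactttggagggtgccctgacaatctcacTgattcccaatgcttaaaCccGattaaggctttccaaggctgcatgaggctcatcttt
The longest run of identical bases between aligned coding sequences was 91 for Cntnap5a and Cntnap5b, 86 for Cntnap5a and Cntnap5c and 68 for Cntnap5b and Cntnap5c, so a read that lies within such a run cannot be told apart. Over whole transcripts, Cntnap5a shared 57 of its 50-base stretches with Cntnap5b and 54 with Cntnap5c, and Cntnap5b shared 43 with Cntnap5c, which is 0.523%, 0.496% and 0.832% of the stretches of the first gene named. No other pair of the 9 genes shared a 50-base stretch.

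Among named groups of at least 30 nuclei, 6 of the 9 genes were highest in GABAergic, glutamatergic or serotonergic nuclei in both libraries, the exceptions being Cntnap4, Cntn4 and Cntn6. Cntnap2, encoded in 2245 kb at chr6:45059357-47304213 on the plus strand, was counted at 5311 CPM in NFD and 5352 CPM in HFD GABAergic nuclei. It reached 6098 and 6819 CPM in glutamatergic nuclei, 5022 and 5913 CPM in serotonergic nuclei, and only 204 and 219 CPM in astrocytes. The Cntnap2 locus overlaps 28 other listed genes, none of them protein coding and 24 on its own strand, so reads from these cannot be told apart from its own where they share sequence.

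**Figure D1:**
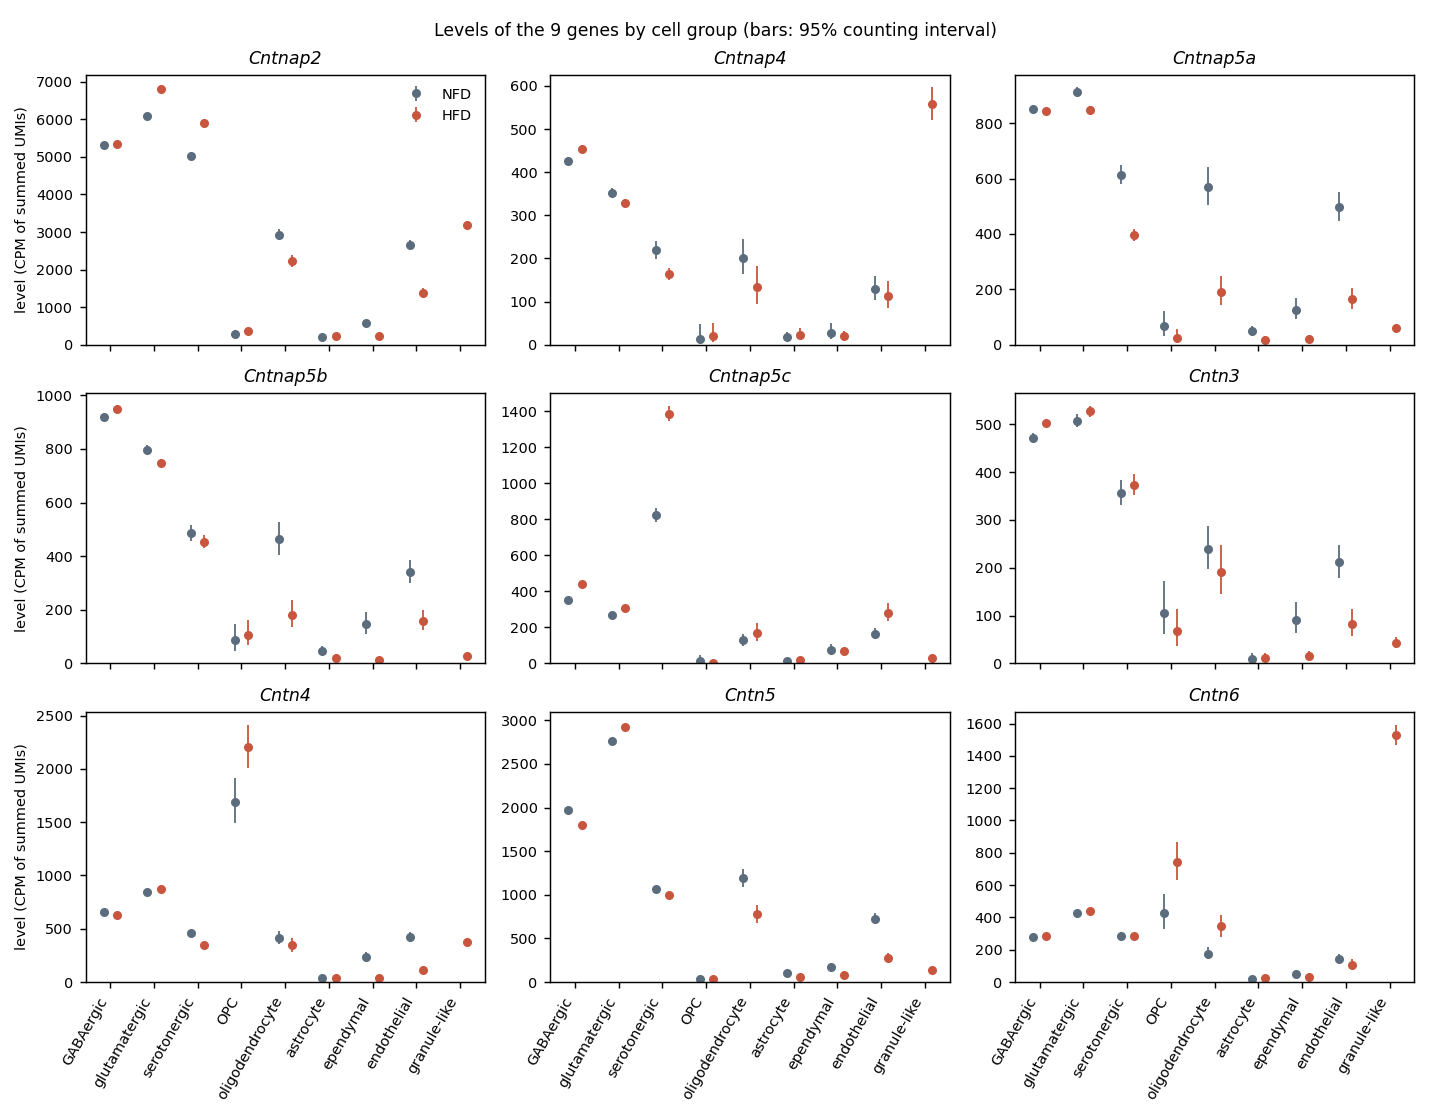
Level of each gene (CPM of summed UMIs, 1 panel per gene, each with its own axis from 0) in 9 cell groups of the NFD (grey) and HFD (red) library, with 95% counting intervals. Groups with under 30 nuclei are left out. Cntnap2 stood at 5022 to 6819 CPM in the GABAergic, glutamatergic and serotonergic nuclei, Cntn4 was highest in oligodendrocyte precursors (1692 and 2203 CPM) and Cntn6 in HFD granule-like nuclei (1528 CPM).

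Cntnap5c was counted at 351 and 439 CPM in GABAergic nuclei, 266 and 306 CPM in glutamatergic nuclei and 821 and 1385 CPM in serotonergic nuclei, so that serotonergic nuclei were highest in both libraries with intervals that did not overlap those of the other neurons. It stood at 15.9 and 18.3 CPM in astrocytes, 72.7 and 66.4 CPM in ependymal cells, 128 and 170.3 CPM in mature oligodendrocytes and 164 and 279 CPM in endothelial cells. In oligodendrocyte precursors it had 2 UMIs in NFD and 0 in HFD, and 3 counts there would be 19.8 and 14.6 CPM. In HFD endothelial cells the tenth of nuclei with the most Cntnap5c held all 126 of its UMIs, and 10.3% of these nuclei had a Cntnap5c UMI after each was thinned to 2000 UMIs.

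Thinning sets aside the unequal depth of nuclei. After it, 40.7% of 2989 NFD and 43.1% of 2285 HFD GABAergic nuclei had a Cntnap5c UMI (95% Clopper-Pearson intervals 39.0 to 42.5% and 41.0 to 45.1%). Astrocytes, which should lack the gene, gave 2.2% and 0.6%, with full median depths of 1769.5 and 2712.5 UMIs against 5108.5 and 9031 UMIs in GABAergic nuclei. The neuronal shares were thus far above those of astrocytes, which were among the groups with the least Cntnap5c. The plan had named endothelial cells and microglia for this comparison, and no group was named microglia. Cluster 10 scored best on microglia markers but stayed unnamed. It was shallow, at median depths of 933.5 and 1409 UMIs, and had no listed microglia marker among its leading genes. It held 27 and 78 Cntnap5c UMIs in 218 and 183 nuclei, so the planned comparison was not free of the gene. Endothelial cells stood higher than astrocytes, at 164 and 279 CPM, as did mature oligodendrocytes at 128 and 170.3 CPM.

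GABAergic and glutamatergic nuclei of the same library differed in most of the 9 genes. Cntnap5c, Cntnap4 and Cntnap5b were higher in GABAergic nuclei, at log2 ratios over glutamatergic nuclei of 0.40, 0.27 and 0.21 in NFD and 0.52, 0.46 and 0.34 in HFD. Cntn6, Cntn5, Cntn4 and Cntnap2 were lower there, at -0.62, -0.48, -0.38 and -0.20 in NFD and -0.63, -0.70, -0.48 and -0.35 in HFD. Cntnap5a and Cntn3 stood between, at -0.10 and -0.11 in NFD and -0.01 and -0.07 in HFD, and the HFD interval of Cntnap5a, -0.04 to 0.02, included 0. Grouping nuclei by transmitter UMIs alone in place of clusters turned 2 of these 18 ratios, Cntnap5b in NFD to -0.04 and Cntn3 in HFD to 0.09, and made others smaller, such as Cntnap5c in NFD at 0.17, Cntnap4 at 0.13 and 0.28 and Cntnap5b in HFD at 0.07. With 30 principal components Cntn4 stood at -0.12 and -0.16, Cntn6 at -0.37 and -0.35 and Cntn5 in NFD at -0.28.

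The contactins also marked cells that are not neurons of the vlPAG. Cntn4 was counted at 1692 and 2203 CPM in oligodendrocyte precursors, above its 653 and 625 CPM in GABAergic and 849.7 and 874 CPM in glutamatergic nuclei, and 97.4% and 97.6% of thinned precursor nuclei had a Cntn4 UMI. Cntn6, a contactin known from the cerebellum, was counted at 1528 CPM in the 767 granule-like HFD nuclei, with a UMI in 90.2% of thinned nuclei, against 284 CPM in GABAergic and 438 CPM in glutamatergic HFD nuclei. Cntnap4 was also present in these granule-like nuclei at 557 CPM, whereas Cntnap5a, Cntnap5b and Cntnap5c stood at 58.6, 29.0 and 30.3 CPM. Since 10 NFD nuclei had this profile, no diet ratio was read from them.

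The diet comparison asked how each gene stood in HFD against NFD nuclei of the same class. In GABAergic nuclei most of the 9 genes differed little. Cntnap5c had 6582 UMIs in NFD and 10770 in HFD, a log2 ratio of 0.32 (0.28 to 0.37), and only 3.45% of the 11460 genes measured there had a higher one. Cntnap2 (0.01), Cntnap5a (-0.01, 852 and 844 CPM), Cntn6 (0.03) and Cntnap5b (0.04, 919.5 and 948 CPM) lay close to 0, and the intervals of the first 3 included it. Cntnap4 and Cntn3 were slightly higher, both at 0.09, at 425 and 454 CPM and at 472 and 502 CPM.

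Cntn5 was the lowest in HFD of the 9, at 1975 and 1805 CPM and a log2 ratio of -0.13 (-0.15 to -0.11), and Cntn4 stood at -0.06. A gene was counted as past the fold limit when it had at least 200 UMIs over both libraries and its whole interval lay more than 25% above the NFD level or more than 20% below it. In GABAergic nuclei 0 of the 9 were past this limit in either direction, where 0.646% of all genes were past it upwards and 1.34% downwards. The count became 1 of 9, Cntnap5c, with 30 principal components, with nuclei grouped by transmitter UMIs and in GABAergic nuclei with a transmitter UMI. The last of these was chosen after the data were seen. The share of all genes past the limit was not computed under these alternatives, so nothing is read from that count. The log2 ratio of Cntnap5c ranged from 0.20 to 0.53 over all alternatives. The ratio of Cntnap5c was 1.252, with an interval that reached below the limit. The median log2 ratio of the 9 was 0.03, and that of all 11460 genes was -0.01.

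In glutamatergic nuclei Cntnap5c was again the highest of the 9, at 2962 and 4957 UMIs and a log2 ratio of 0.20 (0.14 to 0.27), with 10.3% of 10057 genes above it. Cntnap2 came next at 0.16 (0.15 to 0.18). This order was not kept under every alternative: Cntnap5c stood at 0.05 and Cntnap2 at 0.11 with nuclei grouped by transmitter UMIs, and at 0.10 and 0.15 with the family genes and the study's diet genes kept for clustering. Cntnap4, Cntnap5a and Cntnap5b were lower in HFD, at -0.10, -0.10 and -0.09, and the 4 contactins lay between 0.04 and 0.08. Again 0 of the 9 were past the fold limit, against 0.557% of all genes upwards and 1.74% downwards, and their median of 0.04 stood beside -0.04 for all genes.

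Serotonergic nuclei, a group that the choice of the genes did not use, showed the widest differences of the 3 classes. They come from the same libraries in which Cntnap5c was already known to differ with diet, so their values are a description too. Cntnap5c had 1690 UMIs in NFD and 4227 in HFD, or 821 and 1385 CPM, a log2 ratio of 0.75 (0.67 to 0.84), and 17 of 4173 genes (0.407%) were higher. Its paralogue Cntnap5a went the other way, with 1264 and 1210 UMIs, 614 and 396 CPM and a log2 ratio of -0.63 (-0.75 to -0.52), and 99.0% of genes were above it. These were the 2 of the 9 past the fold limit, 1 upwards where 1.39% of all genes were and 1 downwards where 1.32% were.

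Among the other genes in serotonergic nuclei, Cntn4 (463 and 345 CPM) and Cntnap4 (219 and 163 CPM) were lower in HFD, at log2 ratios of -0.43 (-0.55 to -0.30) and -0.42 (-0.61 to -0.24). Cntnap2 was higher at 0.24 (0.20 to 0.27). Cntnap5b, Cntn5, Cntn3 and Cntn6 lay between -0.10 and 0.06, but Cntnap5b stood at -0.50 and Cntn5 at -0.59 with nuclei weighted equally, and at -0.31 and -0.52 with nuclei thinned to 2000 UMIs. Cntn4 stood at -0.63 under the first of these alternatives and -0.71 under the second. In the summed counts the median of the 9 was -0.10 against 0.00 for all genes.

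Depth and marker levels moved with the serotonergic values. The median UMIs per serotonergic nucleus were 5686 in NFD and 16670 in HFD, a wider gap than in the other classes. The 4 serotonergic markers (Tph2, Slc6a4, Fev, Ddc) summed to 3144 and 3640 CPM with none at 0, the 3 glutamatergic markers to 177 and 117 CPM, and the 3 GABAergic markers to 107 and 92.7 CPM; their part in the ratios was not tested. Whether both libraries hold the same kinds of serotonergic nuclei was not tested, and a difference in them cannot be told apart from diet with 1 library each. With every nucleus thinned to 2000 UMIs, Cntnap5c was found in 70.4% of 250 NFD and 88.7% of 168 HFD serotonergic nuclei (64.3 to 76.0% and 82.9 to 93.1%). Over the same nuclei Cntnap5a was found in 66.0% and 44.0% and Cntnap5b in 56.4% and 35.1%.

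**Figure D2:**
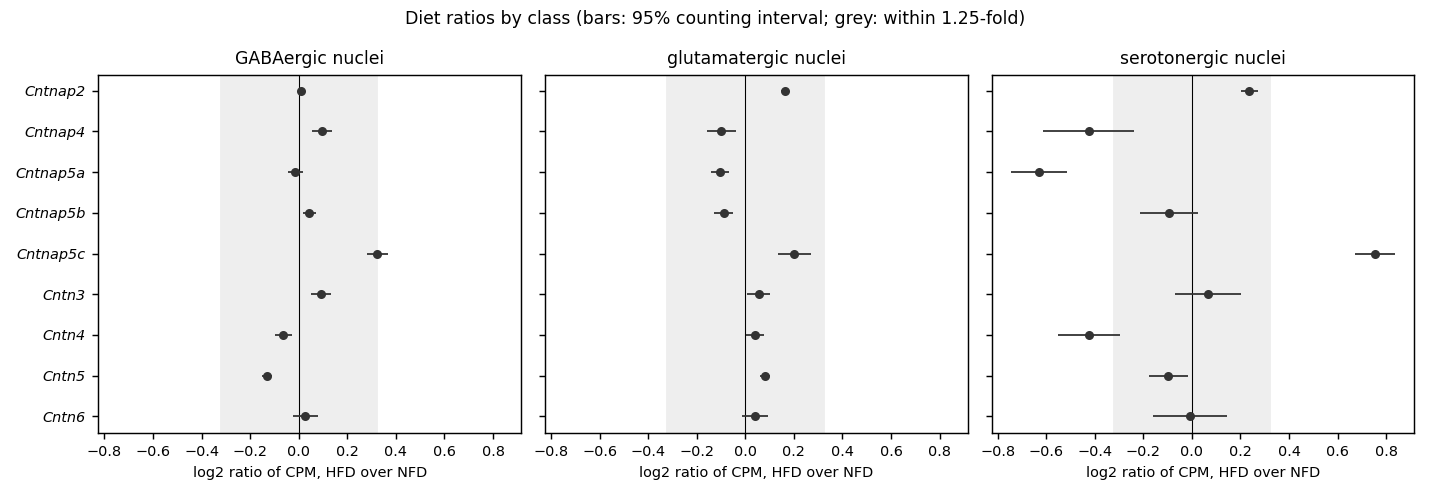
Log2 ratio of CPM, HFD over NFD, of the 9 genes in GABAergic, glutamatergic and serotonergic nuclei, with bars for the 95% counting interval and a grey band for ratios from 20% lower to 25% higher. In serotonergic nuclei Cntnap5c (0.75) lies wholly to the right of the band and Cntnap5a (-0.63) wholly to the left.

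**Figure D3:**
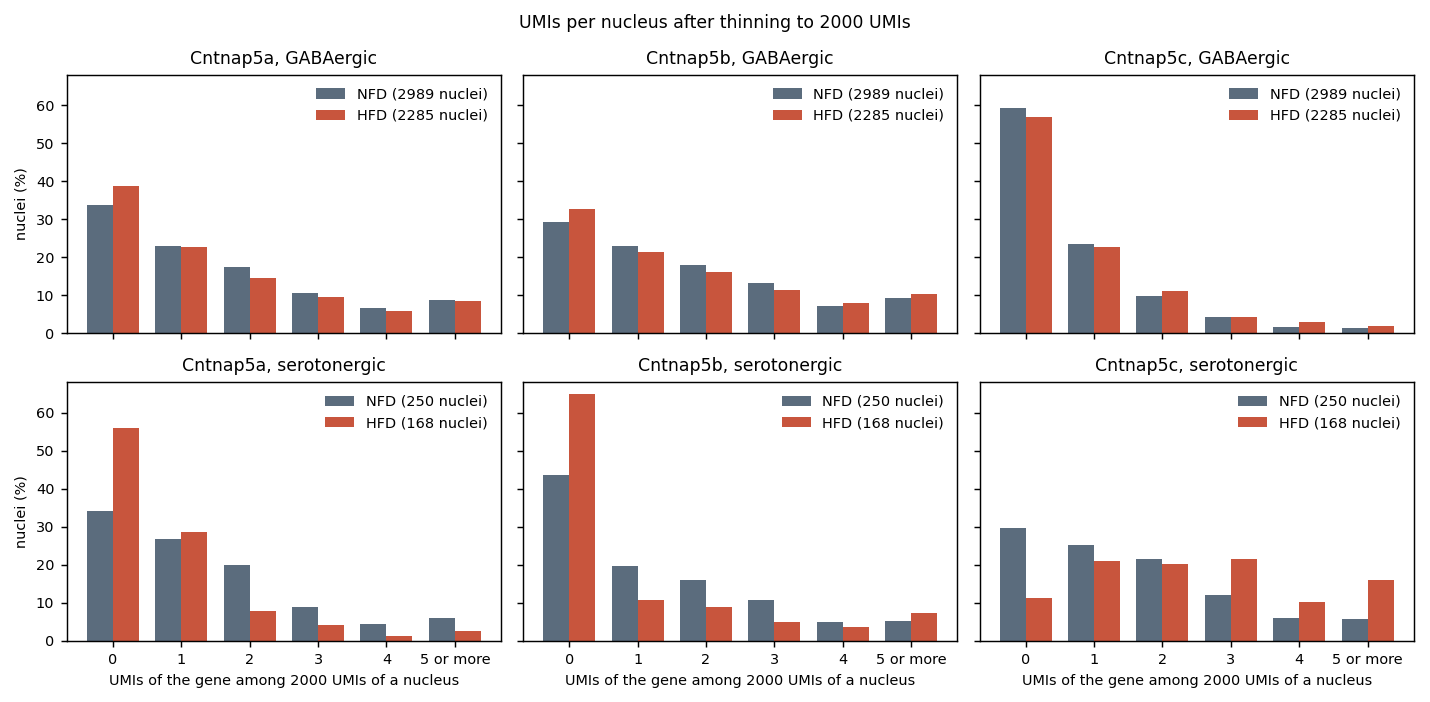
Share of nuclei (%) by the number of UMIs of Cntnap5a, Cntnap5b and Cntnap5c after each nucleus was thinned to 2000 UMIs, in NFD (grey) and HFD (red) GABAergic nuclei (upper row) and serotonergic nuclei (lower row). The mean number of Cntnap5c UMIs was 0.703 and 0.810 in GABAergic nuclei and 1.6 and 2.60 in serotonergic nuclei, where that of Cntnap5a was 1.47 and 0.762.

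The paralogues were then set against each other, since their UMIs share a library and a ratio between them does not depend on its total. Cntnap5c and Cntnap5b were chosen for their diet differences in GABAergic nuclei of these same libraries. The odds ratios are therefore a description and support nothing. Cntnap5c made up 16.5% of the UMIs of the 3 Cntnap5 genes in NFD and 19.7% in HFD GABAergic nuclei, a log2 odds ratio of 0.31 (0.26 to 0.36). The odds ratio was 0.34 against Cntnap5a alone and 0.28 against Cntnap5b alone. In glutamatergic nuclei the share was 13.5% and 16.1%, with a log2 odds ratio of 0.30 (0.23 to 0.37).

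In serotonergic nuclei Cntnap5c made up 42.8% and 62.0%, with a log2 odds ratio of 1.12 (1.01 to 1.24). The 3 genes differ in length, so the shares themselves do not rank them, and what was compared is the same share between libraries. Cntnap5c was higher relative to its paralogues in HFD in each of the 3 classes, but not in every cluster within them. In glutamatergic cluster 14 the log2 odds ratio was -0.25 (-0.44 to -0.06). Outside neurons it was 2.79 (1.86 to 3.76) in ependymal cells and 2.14 (1.67 to 2.60) in endothelial cells. In ependymal cells the level of Cntnap5c itself was not higher, at a log2 ratio of -0.13 (-0.82 to 0.59), and Cntnap5a and Cntnap5b had 18 and 12 HFD UMIs. In endothelial cells the log2 ratio of Cntnap5c was -0.82 with nuclei weighted equally. Mature oligodendrocytes stood at 1.89 (1.24 to 2.54) and unnamed cluster 18 at 3.09 (1.84 to 4.55). Unnamed cluster 10 went the other way, at -0.30 (-1.03 to 0.46). Cntnap5c had under 200 UMIs over both libraries in ependymal cells (27 and 56) and mature oligodendrocytes (61 and 50). The same held in clusters 18 (7 and 43) and 10 (27 and 78). The cause of these shifts was not tested. The ratios of Cntnap5a and Cntnap5b were -0.01 and 0.04 in GABAergic nuclei and -0.10 and -0.09 in glutamatergic nuclei, and that of Cntnap5a was -0.63 in serotonergic nuclei.

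Across 12 neuronal clusters, those of the 3 classes and the 2 unnamed clusters 4 and 13 that passed on neuron markers alone, Cntnap5c was higher in HFD in 11, each with an interval above 0. Of the 2309 genes measured in all 12, 427 (18.5%) were above 0 at least as often, whatever their intervals. The choice of the genes used the GABAergic nuclei, so nothing is read from the 5 of 5 GABAergic clusters above 0, as were 20.7% of the genes measured in all of them. Of the 7 other clusters 6 were above 0, at a median log2 ratio of 0.30, and 27.6% of the 2316 genes measured in all 7 were above 0 at least as often. Those clusters share the libraries that served the choice, so this count is a description as well. The exception was glutamatergic cluster 14 (leading genes Lhx4 and Dach2), at 515 and 469 CPM and -0.14 (-0.30 to 0.03). The other 8 genes were above 0 in fewer of the 12 clusters: Cntnap2 in 9, Cntn3 in 8, Cntnap4 and Cntn4 in 7, Cntnap5a and Cntn5 in 6, and Cntnap5b and Cntn6 in 4. The shares of all genes that match these counts were not computed.

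Beside serotonergic cluster 9, there were 4 neuronal clusters with genes of the set past the fold limit. Cluster 4, unnamed and led by Fign, Ebf2 and Foxp2, had Cntnap5c at 322 and 463 CPM and 0.53 (0.42 to 0.63), 1 of 9 genes upwards where 0.651% of all genes were. GABAergic cluster 12, led by Sst, Prox1 and Calcr, had 2 of 9 upwards where 0.683% of all genes were, Cntnap5b and Cntnap5c, both at 0.47. In that cluster the share of Cntnap5c among its paralogues differed little, at 26.5% and 27.6%.

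GABAergic cluster 7, led by Satb1 and Reln, had 1 of 9 downwards where 0.522% of all genes were, Cntn5 at 2189 and 1679 CPM and -0.38 (-0.44 to -0.32). Cluster 13, unnamed and led by Vip, Lmx1a and Th, had 2 of 9 downwards where 0.853% of all genes were. These were Cntn5, at 961 and 500.1 CPM and -0.94 (-1.07 to -0.81), and Cntn3, at 343 and 209 CPM and -0.72 (-0.92 to -0.51).

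GABAergic nuclei with a UMI of Slc32a1, Gad1 or Gad2 were clustered again into 8 subclusters. Cntnap5c was higher in HFD in all 8, at log2 ratios of 0.27 to 0.82 with intervals above 0. Of the 1510 genes measured in all 8, 12.3% had a ratio above 0 in all 8, whatever their intervals. Such subgroups served to choose the genes, so nothing is read from this count. Cntnap4 was higher in 7, Cntn4 in 6, Cntnap5a, Cntnap5b, Cntn3 and Cntn6 each in 5, Cntnap2 in 4 and Cntn5 in 1. The widest difference was in subcluster 7 (Cdh23, Gli3, Pax2), where Cntnap5c stood at 297 and 525 CPM, 0.82 (0.60 to 1.05), and its paralogues at -0.02 and -0.17. It was the 1 of 9 past the fold limit upwards there, where 0.836% of all genes were.

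Subcluster 2 (Vmn1r209, Npsr1, Otp) had 3 of 9 upwards where 1.73% of all genes were: Cntnap5c at 416 and 617 CPM (0.57), Cntnap5a at 533 and 742 CPM (0.48) and Cntn3 at 839 and 1158 CPM (0.46). Subcluster 3 (Foxp2, Calcr, Prox1) was drawn from the GABAergic nuclei that include cluster 12 and shared leading genes with it, so their counts are not independent. It had 2 of 9 upwards where 0.683% were, Cntnap5b at 638 and 939 CPM (0.56) and Cntnap5c at 488 and 715 CPM (0.55). In subclusters 2 and 3 all the Cntnap5 paralogues were thus higher in HFD, and the log2 odds ratio of Cntnap5c against the others was 0.16 (-0.02 to 0.34) and 0.15 (0.00 to 0.29).

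Subcluster 5 (Nr4a2, Satb1) had 1 of 9 upwards where 0.528% were, Cntnap5a at 365 and 573 CPM (0.65), with Cntnap5b lower at -0.24 (-0.41 to -0.08). Subcluster 1 (Six3, Col23a1) had 1 of 9 where 0.695% were, Cntn6 at 159 and 226 CPM (0.51). Subclusters 0, 4 and 6 had 0 of 9 past the fold limit upwards, where 0.797%, 0.512% and 0.361% of all genes were.

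**Figure D4:**
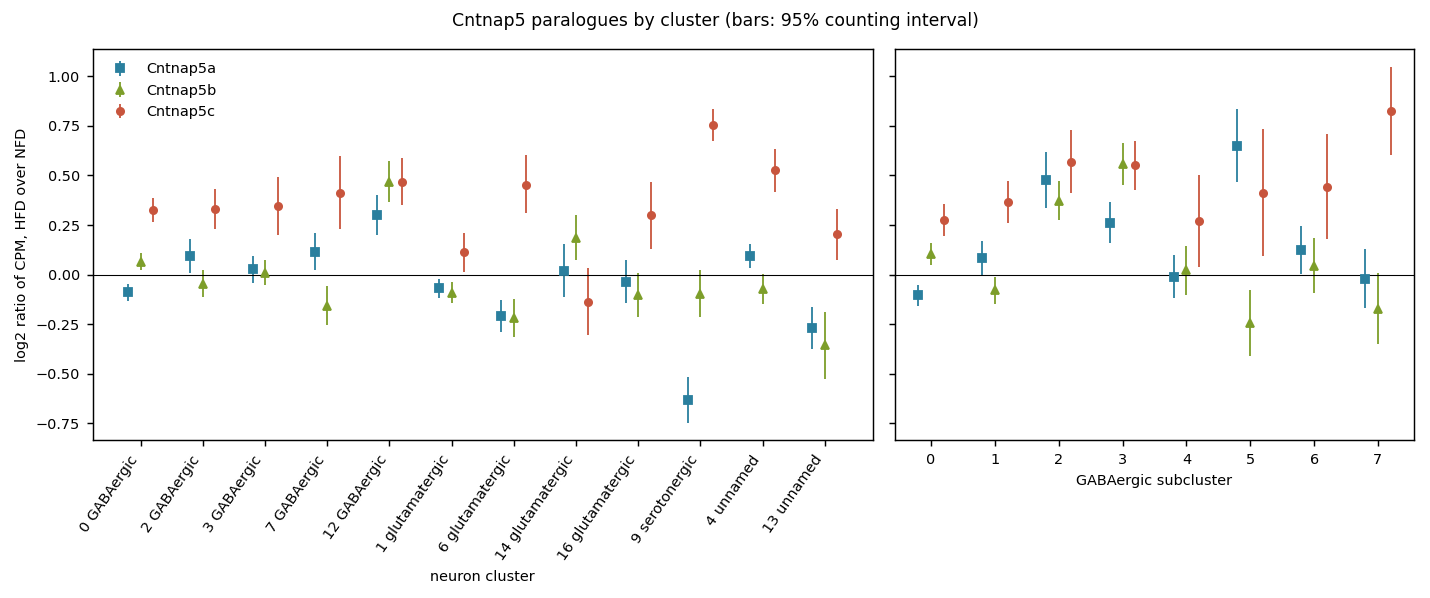
Log2 ratio of CPM, HFD over NFD, of Cntnap5a (squares), Cntnap5b (triangles) and Cntnap5c (circles) in 12 neuronal clusters (left, ordered by class) and 8 GABAergic subclusters (right), with 95% counting intervals. Cntnap5c lies above 0 in 11 of 12 clusters and 8 of 8 subclusters, while its paralogues lie on both sides. Of all genes measured in every cluster 18.5%, and in every subcluster 12.3%, were above 0 at least as often.

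Outside neurons, 1 of the 9 genes was past the fold limit upwards in oligodendrocyte precursors, where 4.8% of the 229 genes measured were. It was Cntn6, whose protein has been linked to oligodendrocyte development, with 65 UMIs in 57 NFD nuclei and 153 in 47 HFD nuclei, or 430 and 742 CPM and 0.79 (0.36 to 1.23). Cntn4 was the other gene of the set with 200 UMIs in these nuclei, at 0.38 (0.16 to 0.61).

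Endothelial cells, with 260 NFD and 96 HFD nuclei, had all 6 of the measured genes past the fold limit, but many other genes were past it there too. Downwards there were 5 genes where 15.9% of all were: Cntnap2 at 2663 and 1385 CPM (-0.94), Cntnap5a at 496 and 164 CPM (-1.60), Cntnap5b at 340 and 160 CPM (-1.09), Cntn4 at 424 and 117 CPM (-1.85) and Cntn5 at 728 and 279 CPM (-1.38). Upwards there was 1 where 12.5% were, Cntnap5c at 0.77 (0.39 to 1.14), whose HFD UMIs all lay in the tenth of nuclei described above. With nuclei weighted equally its log2 ratio went the other way, at -0.82. The 4 neuron markers summed to 3180 and 1687 CPM in these cells, with none higher in HFD and none at 0, and their part was not tested.

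Mature oligodendrocytes (140 and 76 nuclei) had 3 of the 5 measured genes past the limit downwards, where 10.7% of all were. These were Cntnap5a at 570 and 191 CPM (-1.58), Cntnap5b at 463 and 180.5 CPM (-1.36) and Cntn5 at 1189 and 780 CPM (-0.61), while the neuron markers summed to 3340 and 3457 CPM. In ependymal cells Cntnap2, the 1 gene measured, was past it downwards, where 3.88% were, at 585 and 231 CPM (-1.34), and the neuron markers summed to 921 and 421 CPM. With nuclei weighted equally the log2 ratio of Cntnap2 there was -0.25. In astrocytes Cntnap2 was the 1 gene measured, at 0.10 and not past the limit. The part of the neuron markers was not tested in any of these groups.

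There were 3 unnamed clusters outside the 12 neuronal ones with genes past the limit. Cluster 10, led by Inpp5d, Fyb and Ly86, scored best on microglia markers. It had 4 of 5 measured genes upwards where 14.8% of all were, Cntnap2 (0.49), Cntnap5a (1.04), Cntnap5b (1.35) and Cntn5 (1.01). Its neuron markers stood at 2192 and 3329 CPM. Cluster 11, led by Chst9, Gldc and Kit, had 2 of 9 upwards where 14.6% were, Cntn3 (0.73) and Cntn4 (1.67), and 3 downwards where 11.6% were, Cntnap2 (-0.43), Cntnap5b (-1.36) and Cntn5 (-1.69), and neuron markers at 8566 and 4790 CPM. Cluster 20, led by Slc4a4 and Slc1a3, had 1 of 9 upwards where 11.2% were, Cntn6 (1.47), and 5 downwards where 8.29% were, Cntnap5a (-0.83), Cntnap5b (-0.69), Cntnap5c (-0.72), Cntn3 (-1.17) and Cntn5 (-1.28).

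In cluster 20 the granule markers summed to 24.0 CPM in NFD and 628 CPM in HFD, beside the higher Cntn6, and their part was not tested. Cntnap5c was thus lower in HFD there, unlike in most of the neuronal clusters.

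The remaining genes of both families were followed for comparison. Cntn1, the widely expressed contactin, stood at 698 and 719.5 CPM in GABAergic nuclei (0.04) and at 728 and 725 CPM in glutamatergic nuclei (-0.01), and at 2260 and 1979 CPM in oligodendrocyte precursors. Cntn2, the juxtaparanodal partner of Cntnap2, had 31.6 and 34.0 CPM in GABAergic nuclei (0.11) and 124 and 218 CPM in mature oligodendrocytes. Cntnap3 was low in GABAergic nuclei, at 21.4 and 16.7 CPM (-0.35), and stood at 202 and 168 CPM in serotonergic nuclei, and Cntnap1, the paranodal member, was at -0.04 in GABAergic nuclei.

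Most of a list of 12 known partners (Nfasc, Nrcam, Chl1, L1cam, Ptprg, Ptprz1, Kcna1, Kcna2, Kcnab2, Epb41l3, Adam22 and Dlg4) differed little between diets. In GABAergic nuclei 9 of 12 were above 0, 0 were past the fold limit and their median log2 ratio was 0.02, the widest being the scaffold gene Dlg4 at 67.9 and 89.0 CPM, 0.39 (0.29 to 0.49), and the potassium channel gene Kcna2 at -0.25 (-0.45 to -0.05). The ratio of Dlg4 lay above that of Cntnap5c (0.32). Dlg4 too had been listed as differing with diet in a subgroup of the GABAergic nuclei, so its ratio there is a description. In glutamatergic nuclei 9 of 12 were above 0 and 0 past the fold limit at a median of 0.06, with Kcna2 at -0.44 (-0.67 to -0.20). In serotonergic nuclei 8 of the 9 measured were above 0 and 0 past the fold limit at a median of 0.13, with the phosphatase gene Ptprz1 at 0.28 (0.15 to 0.41).

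The genes whose levels over clusters were most like each member were found by Pearson correlation of log2(CPM + 10) over 22 NFD and 23 HFD clusters, averaged over the libraries, among 11821 genes. These are descriptions over clusters that share a library and its depth. Cntnap5c was most like Scn9a (r = 0.95), a sodium channel gene, then Ankrd55 and the netrin receptor gene Unc5d, and Cntnap5a most like Pgr (0.96), the progesterone receptor. Cntnap5b was most like Kcnh7 (0.95), Lrfn5 and its own paralogue Cntnap5a (0.94), while Cntnap5c had r = 0.84 with Cntnap5a and 0.80 with Cntnap5b.

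Cntnap2 and Cntnap4 followed genes found across neurons, Gm44562, Snhg14 and Meg3 for the first (0.98 for Gm44562) and Mtmr7, Celf4 and Snhg14 for the second (0.93 for Mtmr7). Cntn3 was most like Dlgap2 (0.94) and Cntn5 most like Snhg11 (0.93) and the serotonin receptor gene Htr2c. Cntn4 and Cntn6 were both most like Anks1b (0.90 and 0.91), and their correlation with each other was 0.83, against 0.37 and 0.39 with Cntnap5c.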

How the data were processed

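Nuclei were captured with a 3′ droplet kit in 1 library per diet. What the authors deposited are UMI counts, as whole numbers, for each gene in each nucleus. Their methods and processing notes name bcl2fastq 5.01 for demultiplexing, GRCm38 for alignment, Cell Ranger for counting (version 4.0.0 by the header of the matrices) and Seurat 3.1.1. The treatment of intronic reads was not given in the sources read, and it would change the levels of genes as long as these.

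Counts were filtered at 500 UMIs and 20% mitochondrial counts and clustered in Seurat 5.3.0 (R 4.3.3, Matrix 1.6.5) with 2000 variable genes, less the Cntnap and Cntn genes and those the study listed as diet genes, which left 1925, 20 principal components, and a resolution of 0.5 (0.1 for 4129 GABAergic nuclei), without integration. The class resolution and the rules for scoring and for shallow or mixed clusters were set after clusters were seen. Scrublet in scanpy 1.11.5 called 1 and 0 doublets, so none were removed. The members and lists were chosen with earlier results of these data known. Named genes are the 9 members, the rest of both families, 12 partners with up to 4 of the widest ratios, and the 3 genes most like each member.

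UMIs were summed per library and group (numpy 2.4.6, scipy 1.17.1, pandas 2.3.3, Python 3.11.15). Levels have exact Poisson intervals, ratios of levels exact conditional binomial intervals, and odds ratios exact conditional intervals. The ratio intervals were tested on simulated counts and the odds ratio on a known table, while the Poisson intervals were not tested. Transcript sequences came from GENCODE vM21, where all 55450 gene IDs matched, aligned with biopython 1.88. Alternatives were other weights, depth, filters, doublet scores, scalings, variable genes, principal components, groupings and subcluster weights.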

Additional observations from a re-analysis of the deposited data

Results flagged for a closer look

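Of the 9 genes, 2 were past the fold limit (the whole interval over 25% above or 20% below the NFD level) in opposite directions in different neuronal groups. The share of all genes that did so was not computed, so nothing is read from this count. The differences between groups were not tested. Cntnap5a stood at a log2 ratio (HFD over NFD) of -0.63 in the serotonergic cluster 9, but at 0.48 in GABAergic subcluster 2 and 0.65 in GABAergic subcluster 5. Cntn3 stood at -0.72 in cluster 13, led by Vip, Lmx1a and Th, but at 0.46 in GABAergic subcluster 2.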

How the results depend on the processing

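No paired analysis was possible because each diet had 1 library. The log2 ratio of Cntnap5c in GABAergic nuclei (0.32) stayed above 0 under all 12 alternatives. It was 0.23 with nuclei weighted equally, 0.20 thinned to 2000 UMIs, 0.37 with 30 principal components, 0.53 with nuclei grouped by transmitter UMIs, 0.41 with subclusters weighted alike and 0.40 in GABAergic nuclei with a transmitter UMI, an alternative added after the data were seen. With 30 principal components, with grouping by transmitter UMIs and in the added alternative, 1 of the 9 genes was past the fold limit in place of 0. The share of all genes past it was not computed there, so nothing is read from this count. Cntnap5c against its paralogues (0.31) was 0.25 thinned, 0.38 with 30 principal components and 0.58 grouped by transmitter UMIs. The median of the 9 ranged from -0.02 to 0.06. Grouping by transmitter UMIs reversed the GABAergic to glutamatergic log2 ratio of Cntnap5b in NFD to -0.0416 and of Cntn3 in HFD to 0.0903. The cause of these shifts was not tested.

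In serotonergic nuclei Cntnap5c ranged from 0.70 to 0.77 and Cntnap5a from -0.95 to -0.62 over 9 alternatives each, while Cntn5 and Cntnap5b reached -0.59 and -0.50 with nuclei weighted equally and Cntn4 reached -0.71 thinned to 2000 UMIs. Grouping by transmitter UMIs gave no serotonergic group, and centring gave no odds ratio. Small groups such as the 57 and 47 oligodendrocyte precursor nuclei limit what their counts can show, and the unequal depth of the libraries remains in every value that was not thinned.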
